A study of Homo sapiens with 3 samples.

Results

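Retinoid metabolism and retinoid receptors were followed as 10 genes in TE5, an established line of human esophageal squamous cell carcinoma. They are RDH10, ADH7, DHRS9, DHRS3, ALDH1A3, CRABP2, RARG, RARB, CYP26A1 and CYP26B1. They are 10 of the 52992 genes to which the transcripts of the RNA-seq tables could be assigned, and they were chosen by name as steps of 1 pathway, with values of these libraries already known. Their differences are therefore given as a description and carry no test. There were 3 libraries of cells harvested 48 h after transfection, 2 with short hairpin RNA against KLF5, named shKLF5 2 and shKLF5 1 in the labels, and 1 with a scrambled hairpin. The labels do not say whether the numbers 2 and 1 stand for different hairpins or for different cultures, so the spread between them may be technical, and the scramble library has no replicate. KLF5, a Krüppel-like factor expressed in the dividing layer of many epithelia, is a factor that the series sets beside TP63 and SOX2 in a regulatory circuit of this carcinoma.

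Retinoic acid is made from vitamin A in sequence. Retinol dehydrogenases and alcohol dehydrogenases oxidise retinol to retinal, retinal reductases turn it back, and retinaldehyde dehydrogenases oxidise retinal to retinoic acid. CRABP2 carries retinoic acid to the nucleus, where retinoic acid receptors bind DNA as dimers with retinoid X receptors, and CYP26 enzymes of the cytochrome P450 family break it down. CYP26A1 and RARB are textbook targets of the receptors, so that the pathway induces its own clearance. In stratified epithelia retinoids are known to hold back keratinisation.

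The targeted gene was lower in both shKLF5 libraries. KLF5 (ENSG00000102554; GRCh38 chromosome 13, 73054976 to 73077542, plus strand) had 1531 estimated counts in shKLF5 2 and 1333 in shKLF5 1, against 8402 in scramble. The libraries held between 32720563 and 33544752 estimated counts in all, and mitochondrial transcripts took between 31.1% and 38.1% of them. Of the markers of other cell types, those of leukocytes, endothelium and glandular epithelium summed to between 0 and 1.36 TPM per list and library, and TFF1 was at 0 counts in each library. The endothelial marker PECAM1 and the glandular marker MUC5AC were not matched and are not in these sums. VWF, an endothelial marker, had 341, 237 and 87 counts in shKLF5 2, shKLF5 1 and scramble. The other matched endothelial markers, CDH5 and KDR, had at most 14 counts in any library. The 6 fibroblast markers, 5 of them with at least 10 counts in some library, summed to 15.4, 26.3 and 16.7 TPM in shKLF5 2, shKLF5 1 and scramble. The 6 squamous markers summed to 471, 899 and 3347 TPM in the same order, so the line expressed its squamous markers, at a lower level in both shKLF5 libraries. In cultures measured in bulk, fewer cells of a kind and less RNA per cell cannot be told apart.

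The genes of the pathway did not differ from scramble in 1 direction. Both shKLF5 libraries were set against the same scramble library, so an odd value in it would shift both ratios. Of the 10 genes, 5 were below scramble in both shKLF5 libraries, namely ADH7, RARB, CYP26A1, RDH10 and RARG, and across all 20629 genes tested 36.5% were. DHRS9, CYP26B1 and CRABP2 were above scramble in both, where 37.9% of all genes were. DHRS3, followed only in part, and ALDH1A3 were below in shKLF5 2 and above in shKLF5 1, as were 11.8% of all genes. For DHRS3 the log2 ratio to scramble in shKLF5 2 was -0.15, and it turned to 0.24 with library size alone. A distance of at least 2-fold below scramble in both libraries was reached by ADH7 and RARB, with 2.24% of all genes, and at least 2-fold above by DHRS9, with 8.26%. These are values after scaling by the trimmed mean of M values (TMM), in reads per 1000000 (CPM), with 2 counts added on average before taking log2. With edgeR's quasi-likelihood test over the 2 shKLF5 libraries and the scramble library, 0 of 20629 genes (0%) passed a Benjamini-Hochberg adjusted p of 0.05. At an unadjusted p under 0.05 there were 1893 genes (9.18%), 1171 higher (5.68%) and 722 lower (3.5%), while DESeq2 called 116 of the 17029 genes it gave an adjusted p (0.681%) and edgeR's legacy fit 21 (0.102%). The choice of scaling shifts all genes at once. The median log2 fold change of all genes was 0.04 with TMM and 0.47 with library size alone, so a small value near 0 has no fixed sign.

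**Figure D1:**
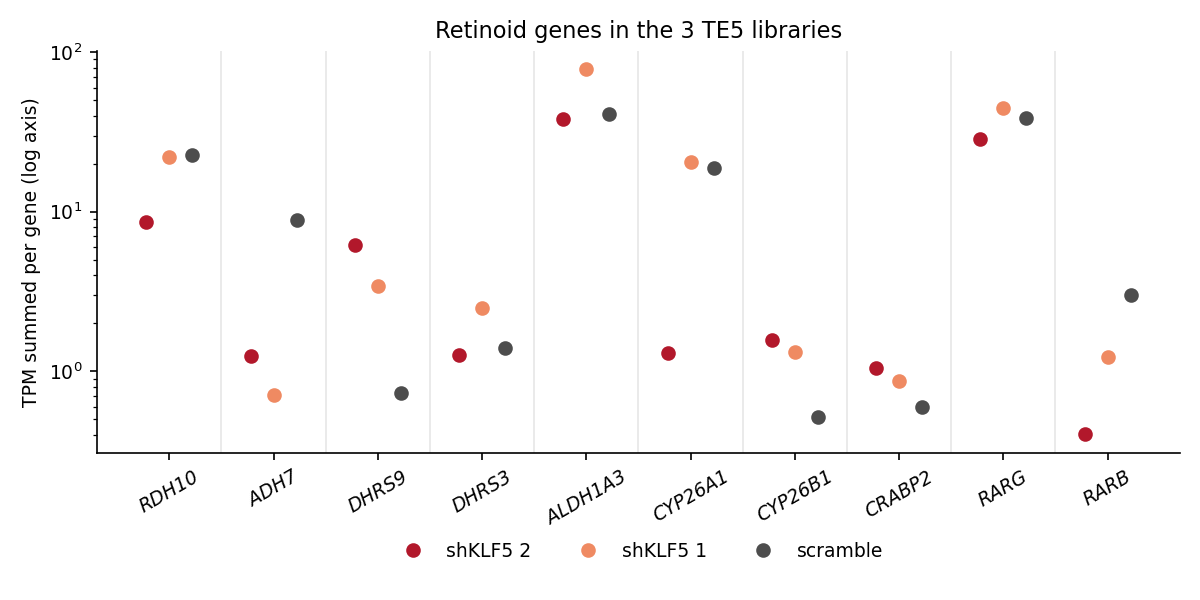
Level per transcript length (TPM, log axis) of the 10 genes in shKLF5 2, shKLF5 1 and scramble, 1 point per library. ADH7 and RARB are lower in both shKLF5 libraries, DHRS9 is higher in both, and CYP26A1 is low in shKLF5 2 alone, at 1.31 TPM against 20.4 in shKLF5 1 and 18.8 in scramble.

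**Figure D2:**
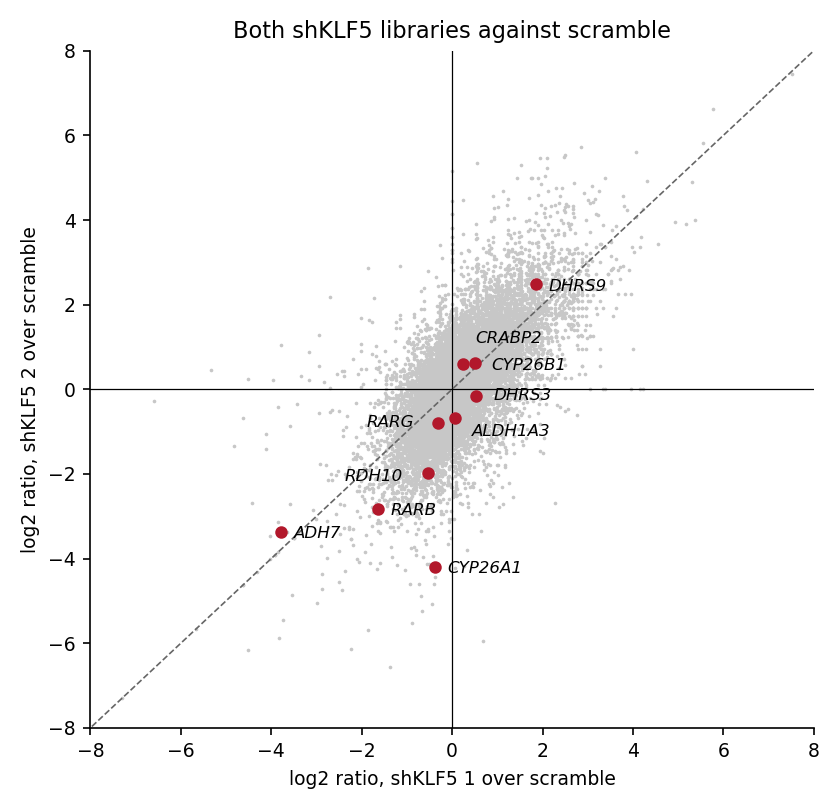
Log2 ratio to scramble of TMM-normalised CPM in shKLF5 1 (horizontal) and shKLF5 2 (vertical) for all 20629 genes tested (grey) and the 10 retinoid genes (red), with the line of equal values dashed. CYP26A1 lies far below the dashed line at -0.37 and -4.19, while ADH7 lies close to it at -3.79 and -3.38; both axes share the scramble library.

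The sequences upstream of CYP26A1 and RARB are shown because they hold the element through which retinoic acid receptors are known to act. The element is a direct repeat of a hexamer with 5 bases between the copies. The hexamer AGGTCA was accepted, as were its variants AGTTCA, further the variant GGGTCA, and last the variant GGTTCA. Both copies had to have the same orientation, and both strands were searched. RefSeq windows (GRCh38.p14) from 250 bases before to 50 bases after a start site were found for 9 of the 10 genes, 19 windows in all, and RDH10 had none. The repeat was found in 1 window of CYP26A1 and 1 of RARB and in no other window of these genes, against 0.0883% of the 35116 windows in the table. Repeats with 1 or 2 bases between the copies, held by 0.131% and 0.0399% of all windows, were found in none of the 19. The 250 bases before the start of RARB are printed, 5′ to 3′ on the strand of the gene (plus), with the repeat in capitals. The stretch is chr3:25428013-25428262, the repeat begins 53 bases before the start, and no annotated exon covers the repeat. Of CYP26A1 the repeat alone is printed, as it reads on the strand opposite to the gene, at chr10:93073803-93073819. It begins 90 bases before the start of the window's transcript, and it lies in the first exon of another transcript, CYP26A1-202, whose 5′ untranslated region spans 93073475 to 93073834.
RARB: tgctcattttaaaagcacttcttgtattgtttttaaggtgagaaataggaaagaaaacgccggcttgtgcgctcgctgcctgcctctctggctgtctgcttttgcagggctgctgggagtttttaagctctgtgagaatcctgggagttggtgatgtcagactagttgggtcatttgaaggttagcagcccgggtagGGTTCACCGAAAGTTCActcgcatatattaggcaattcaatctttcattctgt
CYP26A1: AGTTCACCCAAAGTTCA

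The same windows were searched for letters like those that factors of the KLF family bind, on both strands. These were GGGTGTG, the variant GGGCGTG, and further the variant GGGAGTG. They were found in 4 of the 19 windows, 2 of DHRS3, 1 of CYP26B1 and 1 of DHRS9, and in 22.0% of all windows. The windows of ADH7, CYP26A1, RARB, RARG, ALDH1A3 and CRABP2 held none of these letters. Other letters that KLF factors may bind were not searched, so these windows are not shown to lack KLF sites. Beyond the members, 27 genes had a window with the repeat of 5-base spacing, and 9 of them were expressed highly enough to be tested. Of these 9, 0 were at least 2-fold lower and 2 at least 2-fold higher in shKLF5 2 than in shKLF5 1, beside 8.44% and 7.34% of all genes tested. Their median log2 ratio of shKLF5 2 to shKLF5 1 was 0.28, against 0.00 for all genes tested. Against scramble, 1 of the 9 was below in both shKLF5 libraries (36.5% of all genes) and 6 were above in both (37.9%). The median of their log2 fold changes was 0.44, against 0.04 for all genes tested. CYP26A1 and RARB were below in both after TMM scaling, but the side of CYP26A1 in shKLF5 1 changed with the scaling.

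The enzymes that oxidise retinol differed among themselves. ADH7 (ENSG00000196344; chromosome 4, 99412261 to 99435737, minus strand), a class of alcohol dehydrogenase found in the upper digestive tract with a high activity on retinol, had 51 counts in shKLF5 2 and 39 in shKLF5 1, against 420 in scramble. Both shKLF5 libraries were far below scramble and close to each other. The level was 10.8-fold lower than scramble in shKLF5 2 and 14.5-fold lower in shKLF5 1, or 1.28 ± 0.27 CPM (SD, n = 2) in shKLF5 against 15.8 CPM in scramble. The log2 fold change was -3.62 (SE 0.48), and 23 of the 20629 genes tested, ADH7 included, had a value as low or lower. Transcript ADH7-201 held most of the counts, with 37.7 in shKLF5 2, 35.3 in shKLF5 1 and 368 in scramble.

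RDH10 and DHRS9 stood on opposite sides of scramble. RDH10 (ENSG00000121039; chromosome 8, 73294612 to 73325281, plus strand), the retinol dehydrogenase that embryos need to make retinoic acid in the mouse, had 541 counts in shKLF5 2 and 1511 in shKLF5 1, against 1632 in scramble. Only shKLF5 2 stood clearly apart, 3.95-fold below scramble, while shKLF5 1 was 1.46-fold below. On the TPM scale RDH10 had 8.67 in shKLF5 2, 22.1 in shKLF5 1 and 22.6 in scramble, so the small step between shKLF5 1 and scramble depends on the scale. RPL7, a ribosomal protein gene on the opposite strand, overlaps RDH10 and had 7395, 6549 and 7582 counts in shKLF5 2, shKLF5 1 and scramble. The use of strand in counting is not given in the sources used here, and reads from such an overlap cannot be told apart without it.

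DHRS9 (ENSG00000073737; chromosome 2, 169064789 to 169096167, plus strand), a short chain dehydrogenase with retinol dehydrogenase activity in epithelia, had 243 counts in shKLF5 2 and 163 in shKLF5 1, against 32 in scramble. It was the member furthest above scramble, by 5.81-fold in shKLF5 2 and 3.78-fold in shKLF5 1, with a log2 fold change of 2.26 (SE 0.62). The makeup of its transcripts differed between the shKLF5 libraries. DHRS9-202, which starts furthest downstream of the 8 listed, had 137 counts in shKLF5 2, 21.8 in shKLF5 1 and 0 in scramble, whereas DHRS9-201 had 49.7, 73.2 and 10.2.

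DHRS3, which reduces retinal back to retinol, could be followed only in part. Its transcripts on chromosome 1 that were matched are 3 short ones, while DHRS3-204, the longest coding transcript of the gene in GENCODE 29 with 1722 bases, was not matched and is not analysed here. The 3 transcripts summed to 28 counts in shKLF5 2, 48 in shKLF5 1 and 24 in scramble. They describe those transcripts and not the level of DHRS3 (ENSG00000162496).

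ALDH1A3, the only retinaldehyde dehydrogenase among the 10 genes, was the most abundant of them per length. ALDH1A3 (ENSG00000184254; chromosome 15, 100877714 to 100916626, plus strand) had 38.3 TPM in shKLF5 2, 78.4 in shKLF5 1 and 41.1 in scramble. On the CPM scale it had 85.6 in shKLF5 2 and 142 in shKLF5 1, against 136 in scramble. The shKLF5 libraries lay on both sides of scramble on the CPM scale as well as in TPM. The log2 fold change of -0.26 (SE 0.41) turned to 0.17 with library size alone. A retained intron transcript of 586 bases, ALDH1A3-205, took 9.60 TPM in shKLF5 2 and 26.4 in shKLF5 1, against 6.02 in scramble. Coding transcripts alone had 27.3, 45.9 and 34.2 TPM in the same order, so shKLF5 1 was still the highest. An antisense gene, AC015712.2, overlaps ALDH1A3 and had 261, 479 and 296 counts in shKLF5 2, shKLF5 1 and scramble, in the same order of libraries as ALDH1A3, and its part in the result was not tested.

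Of the 10 genes, CYP26A1, which codes for an enzyme that clears retinoic acid, showed the widest difference between the shKLF5 libraries. CYP26A1 (ENSG00000095596; chromosome 10, 93073475 to 93077890, plus strand) had 80 counts in shKLF5 2 and 1194 in shKLF5 1, against 1147 in scramble. It was 18.8-fold below scramble in shKLF5 2. In shKLF5 1 it was 1.29-fold below scramble after TMM scaling, but level with or above it on the other scales, with log2 ratios of 0.06 by library size alone and 0.11 by log2(TPM + 1). The fitted log2 fold change of -1.28 had an SE of 1.07, with 17.8 ± 21.9 CPM (SD, n = 2) in shKLF5 against 43.1 CPM in scramble, and so it rests on shKLF5 2. Without shKLF5 2 the value was -0.37, and without shKLF5 1 it was -4.19. Both listed transcripts were low in shKLF5 2: CYP26A1-201 had 80 counts against 1140 in shKLF5 1 and 1088 in scramble, and CYP26A1-202 had 0 against 53.9 and 59.6. CYP26A1-203, CYP26A1-204, CYP26A1-205 and CYP26A1-206, which are not annotated as coding transcripts, were not matched.

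CYP26B1 (ENSG00000003137; chromosome 2, 72129238 to 72148038, minus strand), the second of the clearing enzymes, did not follow CYP26A1. It had 93 counts in shKLF5 2 and 89 in shKLF5 1, against 46 in scramble, so the shKLF5 libraries were nearly level and both above scramble. The log2 fold change was 0.57 (SE 0.57), an error as large as the value. Per length, CYP26A1 at 1.31 TPM was close to CYP26B1 at 1.57 TPM in shKLF5 2. It stood far above CYP26B1 in shKLF5 1, at 20.4 against 1.31 TPM, and in scramble, at 18.8 against 0.513 TPM.

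The carrier and the receptors ranged from scarce to abundant. CRABP2 (ENSG00000143320; chromosome 1) was near the limit of detection with 27 counts in shKLF5 2 and 21 in shKLF5 1, against 13 in scramble, and 1 of its coding transcripts, CRABP2-204, was not matched. RARG (ENSG00000172819; chromosome 12, 53210567 to 53232980, minus strand), the main retinoic acid receptor of stratified epithelium, had 28.6 TPM in shKLF5 2 and 44.6 in shKLF5 1, against 38.6 in scramble. Its log2 fold change was -0.54 (SE 0.37). In shKLF5 1 it was below scramble after TMM scaling, at -0.32, and above it with library size alone, at 0.11. RARG was thus lower than scramble in shKLF5 2, by 1.73-fold after TMM scaling. There its log2 ratio of -0.79 shrank to -0.37 with library size alone. In shKLF5 1 RARG was within the uncertainty of scaling.

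RARB (ENSG00000077092; chromosome 3), the receptor that retinoic acid itself induces, had 29 counts in shKLF5 2 and 71 in shKLF5 1, against 168 in scramble. Both shKLF5 libraries were below the single scramble library, by 7.58-fold in shKLF5 2 and 3.19-fold in shKLF5 1. The level was 1.41 ± 0.81 CPM (SD, n = 2) in shKLF5 against 6.32 CPM in scramble, with a log2 fold change of -2.16 (SE 0.61). Per length RARB was scarce, at 0.402 and 1.23 TPM in shKLF5 2 and shKLF5 1 against 3.03 TPM in scramble, and RARG exceeded it in each library. TOP2B, a topoisomerase gene on the opposite strand, overlaps RARB and had 2067, 2314 and 3119 counts in shKLF5 2, shKLF5 1 and scramble.

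The transcripts of RARB were assigned to more than 1 start site. Transcripts that start within 1000 bases of RARB-201, next to the repeat printed above, had 29 counts in shKLF5 2 and 66.8 in shKLF5 1, against 100.1 in scramble. Transcripts that start elsewhere, RARB-202 and RARB-204, had 0 counts in shKLF5 2 and 4.16 in shKLF5 1, against 67.9 in scramble. The first kind thus held 100% of RARB counts in shKLF5 2 and 94.1% in shKLF5 1, against 59.6% in scramble. Both kinds were lower in the shKLF5 libraries. Kallisto, the quantifier named for these tables, divides reads shared by transcripts of 1 gene, so these shares are estimates from few reads. RARG counts were assigned mostly to 1 start. Coding transcripts from its upstream start held 91.3% of its counts in shKLF5 2 and 90.1% in shKLF5 1, against 92.7% in scramble, and those from the downstream start held 4.02%, 4.84% and 2.39%.

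**Figure D3:**
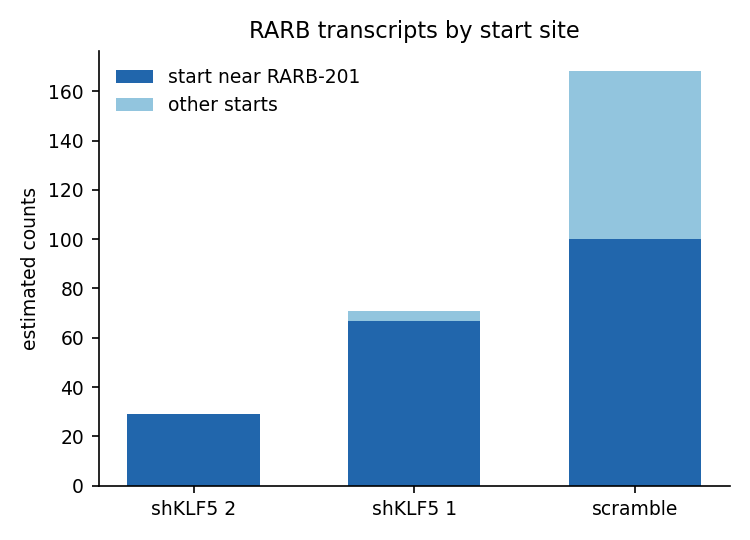
Estimated counts of RARB transcripts in shKLF5 2, shKLF5 1 and scramble, stacked by start site: within 1000 bases of the start of RARB-201 (dark) or elsewhere (light). The light part is 0 counts in shKLF5 2 and 4.16 in shKLF5 1, against 67.9 in scramble.

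Set directly against each other, the shKLF5 libraries differed most in CYP26A1. At 1 library on each side there is no test, and the intervals given cover counting error of reads only (exact binomial, 95%). The log2 ratio of shKLF5 2 to shKLF5 1 was -3.82 for CYP26A1 (-4.20 to -3.53), a level 14.5-fold lower in shKLF5 2. Among the 20629 genes tested 22, CYP26A1 included, had a ratio as low or lower. RDH10 had a log2 ratio of -1.43 (-1.58 to -1.30) and RARB of -1.19 (-1.92 to -0.61). These 3 genes were at least 2-fold lower in shKLF5 2 than in shKLF5 1, as were 8.44% of all genes, and none of the 10 was at least 2-fold higher, as were 7.34% of all genes. ALDH1A3 at -0.73 (-0.80 to -0.67) and RARG at -0.47 (-0.56 to -0.39) were also lower in shKLF5 2 beyond counting error, and DHRS9 was higher at 0.61 (0.33 to 0.91). The matched transcripts of DHRS3, which are not the level of the gene, stood at -0.69 (-1.46 to -0.03). Which genes pass 2-fold depends on the scale for RARB, at -0.67 on log2(TPM + 1) and -0.80 with coding transcripts only, and for ALDH1A3, at -1.02 on log2(TPM + 1) and -1.03 on log2(TPM + 0.1).

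ADH7, CYP26B1 and CRABP2 did not differ between the shKLF5 libraries beyond counting error, though their intervals are wide. The log2 ratio was 0.41 (-0.20 to 1.07) for ADH7, 0.10 (-0.33 to 0.54) for CYP26B1 and 0.37 (-0.47 to 1.30) for CRABP2. KLF5 itself was nearly level, with a log2 ratio of 0.24 (0.14 to 0.35), slightly higher in shKLF5 2. That interval covers counting error only, so which shKLF5 library had less KLF5 is not settled. The part of KLF5 in the lower CYP26A1, RDH10 and RARB of shKLF5 2 was not tested. The fibroblast markers did not share 1 order of libraries. COL3A1, a collagen gene, had 48 counts in shKLF5 2 and 435 in shKLF5 1, against 484 in scramble, the order seen for CYP26A1 on the CPM scale. COL1A2 had 15 and 18 counts against 1 in scramble, PDGFRB 35 and 39 against 3, and DCN 7 and 9 against 4, all above scramble in both shKLF5 libraries. COL1A1 had 1495 and 2195 counts against 1291, and LUM 4 and 20 against 9. Their part in the result was not tested.

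**Figure D4:**
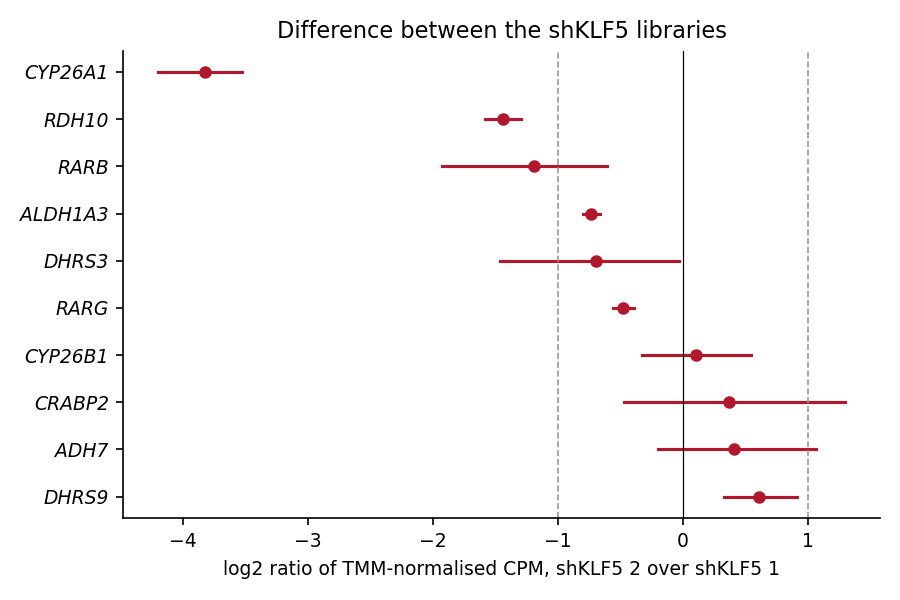
Log2 ratio of shKLF5 2 to shKLF5 1 for the 10 genes, from TMM-normalised CPM with 2 counts added, with the exact binomial 95% interval of counting error as a line and 2-fold limits dashed. CYP26A1 at -3.82 stands apart, and the intervals of RDH10 and RARB lie below 0, while those of ADH7, CYP26B1 and CRABP2 include 0.

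The remaining genes of the pathway were taken from 4 lists of 59 genes in all, of which 41 were expressed highly enough to be tested. None of the 41 passed edgeR's adjusted threshold in either direction. At an unadjusted p under 0.05 there were 4 higher and 4 lower of the 41, where 5.68% and 3.5% of all genes were, and DESeq2 called 1, AKR1B10, where it called 0.681% of all genes. Of the 41 genes 21 were below scramble in both shKLF5 libraries, 12 above in both and 8 on opposite sides. Across all genes tested, 36.5% were below in both and 37.9% above in both. Their median log2 fold change was -0.30, against 0.04 for all genes tested. The median in shKLF5 2 was -0.36 and in shKLF5 1 -0.12. Between the shKLF5 libraries, 10 of the 41 were at least 2-fold lower in shKLF5 2 and 2 at least 2-fold higher, beside 8.44% and 7.34% of all genes.

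Among the other oxidoreductases, 8 of the 13 tested were below scramble in both libraries (36.5% of all genes) and 3 above in both (37.9%), with a median of -0.50. AKR1B10, an aldo-keto reductase that reduces retinal, had 156 and 237 TPM in shKLF5 2 and shKLF5 1, against 611 TPM in scramble. Its log2 fold change was -2.08 (SE 0.36), with an adjusted p of 0.319 by edgeR's quasi-likelihood test and 0.00492 by DESeq2. ALDH1A1, a retinaldehyde dehydrogenase like ALDH1A3, had 322 counts in shKLF5 2 and 985 in shKLF5 1, against 1554 in scramble. Its log2 fold change was -1.67 (SE 0.58; edgeR's quasi-likelihood adjusted p = 0.474), and here the shKLF5 libraries were separated from scramble but also from each other. SDR16C5, a retinol dehydrogenase of epithelia, stood at -0.97 (SE 0.47), and ADH5, the formaldehyde dehydrogenase, at -0.84 (SE 0.34). RDH13, a mitochondrial relative of the retinol dehydrogenases, had 66.2 and 28.0 TPM in shKLF5 2 and shKLF5 1, against 16.1 TPM in scramble. CYP26C1, the remaining CYP26 enzyme, had 0 counts in each library.

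Genes of retinoid uptake, storage and carriage were often too low to test. Of 15 listed, 8 were tested, with 3 below scramble in both libraries (36.5% of all genes), 3 above in both (37.9%) and a median log2 fold change of 0.29. These counts are close to the shares of all genes. The 3 genes above in both had at most 64 estimated counts in any library and at most 8 in scramble. The positive median thus rests partly on genes of few counts. CES1, a carboxylesterase that can hydrolyse retinyl esters, was abundant, with 301 TPM in shKLF5 2 and 576 in shKLF5 1, against 918 in scramble (log2 fold change -1.56, SE 0.43). SCARB1, a lipoprotein receptor that takes up carotenoids, had 2430, 6491 and 6384 counts in shKLF5 2, shKLF5 1 and scramble. Its log2 ratio to scramble was -1.78 in shKLF5 2 and -0.41 in shKLF5 1, where it turned to 0.03 with library size alone. DGAT1, an acyltransferase that can esterify retinol, had 704, 1224 and 958 counts in that order, and its side of scramble in shKLF5 1 changed with the scaling too. LRAT, the main retinol esterifying enzyme, had at most 9 counts in any library.

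Receptors and coregulators had the median nearest to 0 of the 4 lists. Of the 11 tested, 6 were below in both libraries (36.5% of all genes) and 3 above in both (37.9%), and the median was -0.09. RARA, the third retinoic acid receptor, had 15.1 TPM in shKLF5 2 and 9.77 in shKLF5 1, against 4.61 in scramble, a log2 fold change of 0.90 (SE 0.47). RARA was thus higher by value in both shKLF5 libraries, whereas RARB was lower in both and RARG was lower on each scale in shKLF5 2 alone. RXRA, the main partner receptor, had 22.4 and 41.6 TPM in shKLF5 2 and shKLF5 1, against 34.7 TPM in scramble, and its side in shKLF5 1 changed with the scaling. PPARD, a receptor that can also bind retinoic acid, stood at -0.59 (SE 0.37), and the coactivator NCOA3 at -0.49 (SE 0.35). With library size alone these values were -0.16 and -0.06, and NCOA3 was above scramble in shKLF5 1, at 0.09.

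Genes known to respond to retinoic acid in other settings lay on both sides of scramble. Of the 9 tested, 4 were below scramble in both libraries (36.5% of all genes) and 3 above in both (37.9%), with a median of -0.39. These counts, too, are close to the shares of all genes. NR2F1, an orphan receptor gene, had 17 counts in shKLF5 2 and 80 in shKLF5 1, against 97 in scramble, and was low in shKLF5 2 as CYP26A1 was. The homeobox gene MEIS1 stood at -0.97 (SE 0.55), the corepressor NRIP1 at -0.58 (SE 0.40), NR2F2 at -0.55 (SE 0.40) and MEIS2 at -0.39 (SE 0.62). In shKLF5 1 the log2 ratios of NRIP1 and NR2F2, -0.33 and -0.25, turned to 0.10 and 0.19 with library size alone. MEIS2 was above scramble in shKLF5 1, at 0.18, and its fold change turned to 0.04 with library size alone. MEIS1 stayed below scramble in both shKLF5 libraries on each scale. None of these had an adjusted p under 0.05 by edgeR's quasi-likelihood test.

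**Figure D5:**
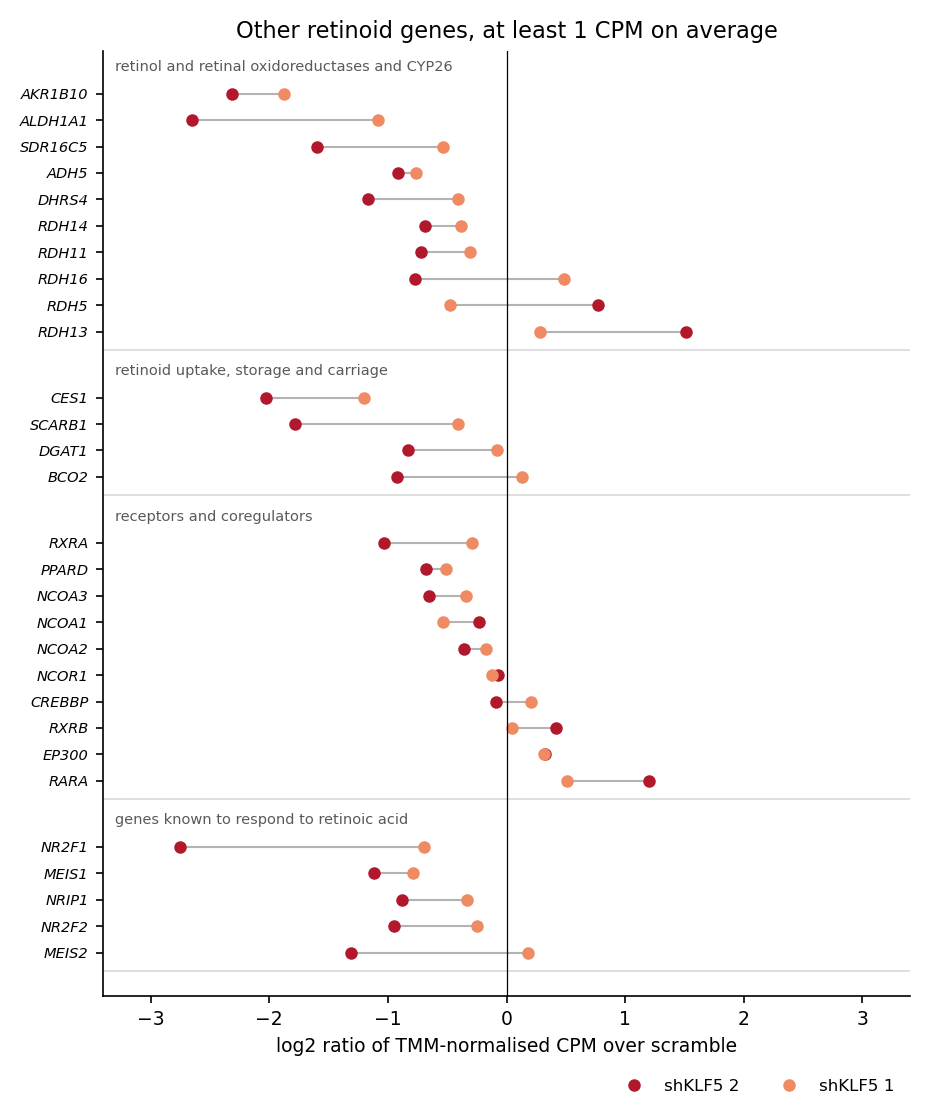
Log2 ratio to scramble in shKLF5 2 (dark) and shKLF5 1 (light) of genes in the 4 lists that were tested and averaged at least 1 CPM. Some genes not reported here by name were left out. Among oxidoreductases AKR1B10 and ALDH1A1 lie lowest, and RARA is above 0 in both libraries.

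Genes with values most like those of a member were sought by distance in the pair of log2 ratios to scramble, over 3 libraries and 10375 or 10376 other coding genes at a mean of at least 5 CPM. With so few libraries this is a description only. The genes nearest to CYP26A1 were NTS, the precursor of neurotensin, with 19, 257 and 280 counts in shKLF5 2, shKLF5 1 and scramble, EGLN3, a prolyl hydroxylase of hypoxia inducible factors, with 27, 345 and 342, and the readthrough gene SEPT5-GP1BB with 28, 305 and 357. Their distances were 0.19, 0.25 and 0.37. The genes nearest to DHRS9, at distances of up to 0.12, were NR4A1, an orphan nuclear receptor induced by many stimuli, KRT80, a keratin, and ZSWIM4. No gene lay close to ADH7: the nearest was KLF5 itself at 0.88, then MBOAT1 at 1.04 and CYP4F3, a fatty acid hydroxylase, at 1.05.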

How the data were processed

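RNA-seq was available for 3 TE5 libraries. The submitters' processing notes name kallisto, DESeq2 and hg19, without versions. The deposited values are estimated counts per transcript, not normalised, per the file headers, and TPM, per the file headers. The deposited length and effective length, in bases, carry other information and were used only to compare annotations. The sources used here give neither the transcript set nor the strand setting.

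Of 196354 transcripts 181857 (92.6%) matched GENCODE 29 by identifier, whose GRCh38 coordinates are printed; the rest held 3.05% to 3.42% of counts and were left out. For each of 52992 genes the counts of its transcripts were added up and then rounded. edgeR 4.0.16 (R 4.3.3; filterByExpr, TMM, quasi-likelihood F test, legacy = FALSE) compared 2 shKLF5 libraries with 1 scramble library, with 1 residual degree of freedom. The p-values are adjusted by Benjamini-Hochberg over 20629 genes; all 10 members were among them. TMM factors were 1.10, 1.11 and 0.82 for shKLF5 2, shKLF5 1 and scramble. SE is the absolute log2 fold change over the square root of F. Limma 3.58.1 and DESeq2 1.42.0 served as alternatives, and the fit was tested on simulated data. The estimated counts are of reads, not of molecules, so intervals cover counting error of reads only.

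Members, lists and tests were chosen with earlier results of these data known. From each list up to 4 genes on 1 side of scramble with the largest changes at a mean of at least 1 CPM were named, plus up to 2 with the highest TPM and ALDH1A1, RARA and RXRA; CYP26C1, LRAT and the fibroblast markers were named after their values were seen. Some genes that this rule takes are counted in their lists but not reported here by name.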

Additional observations from a re-analysis of the deposited data

How the results depend on the processing

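The count of genes that edgeR's quasi-likelihood test called for shKLF5 against scramble stayed at 0 with limma on log2(TPM + 1), without a filter on low counts, by library size alone and by median-ratio size factors, but was 116 with DESeq2 and 21 with edgeR's legacy fit. Leaving out a shKLF5 library leaves 1 library against 1 and gives values with no test. The count of genes at least 2-fold apart between shKLF5 2 and shKLF5 1, 3255, was 5436 with no filter, 1042 at a mean of at least 5 CPM and 1318 on log2(TPM + 1), where filter and scale set how many genes can pass. The median log2 fold change of the other retinoid genes, -0.30, turned to 0.13 with library size alone, which raises all genes, and to 0.21 with no filter, which adds genes of few counts. It ran from -0.36 to -0.12 with either shKLF5 library left out. Of 90 recalculated values of single members against scramble, 6 changed sign. The log2 fold change of ALDH1A3, -0.26, was 0.17 with library size alone and 0.41 on either TPM scale, and ran from -0.67 without shKLF5 1 to 0.062 without shKLF5 2. That of DHRS3, 0.25, was -0.092 with coding transcripts only, and ran from -0.15 without shKLF5 1 to 0.54 without shKLF5 2. Of 50 recalculated values of shKLF5 2 against shKLF5 1, 0 changed sign, but RARB fell short of 2-fold and ALDH1A3 passed it under some of them. No paired analysis was possible because there is a single scramble library, whose title in the labels carries no number. Depth limits CRABP2 and the matched DHRS3 transcripts, which had under 50 counts per library, and RARB in shKLF5 2.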
